A study of Mus musculus with 39 samples.

Results

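The genes described here belong to families that include secretory genes of the epididymis, the coiled duct behind the testis. They were followed in samples of the fat pad that lies against this duct. They were picked by a rule on gene symbols: the beta-defensins (Defb), the serine protease inhibitors of the Spink family, the cysteine-rich secretory proteins (Crisp), Rnase9 to Rnase13, the cystatins Cst8, Cst11 and Cst12, Adam7 and Adam28, and the lipocalins Lcn5, Lcn6, Lcn8 to Lcn13. The array carried 76 such genes among 29411 gene names, on 83 probes, and where a gene had several probes the brightest was used. They were 44 Defb, 10 Spink, 8 Lcn, 5 Rnase, 4 Crisp, 3 Cst and 2 Adam genes. Of the 76, 11 are relatives known mainly from other organs, such as Defb3 and Spink4, and 38 were not assigned to a region of the duct. All of these were kept in the set.

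As sperm pass along the epididymis they mature in a fluid whose proteins are made by the epithelium of successive regions, from the initial segment through the caput (head) and corpus (body) to the cauda (tail). Each region secretes its own mixture of lipocalins, which carry small lipophilic molecules, of cystatins and Spink proteins, which inhibit proteases, and of defensins, which coat sperm and act against bacteria. Adipocytes are not known to make most of these proteins. The epididymal fat pad is attached to the epididymis, and the fat is dissected away from the duct when it is collected.

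The data were single-colour Agilent arrays of epididymal adipose RNA from C57BL/6J mice, 39 arrays in all. Mice weaned at 3 to 4 weeks of age were divided into groups of 30. The LFC group received a low-fat control diet with 10% of calories from fat, and its 11 arrays were of days 1, 6, 10 and 14 and weeks 0, 3, 6, 9, 12, 15 and 18. The HFC group received a high-fat, high-sucrose diet with 60% of calories from fat, and its 10 arrays covered the same time points without day 1. The HF5, HF20 and HF75 groups received the diet of HFC with 5, 20 or 75 µg of KAL-1, a botanical formulation whose composition the labels do not give, and each had 6 arrays, of weeks 3 to 18. Each labelled time point of a diet had 1 array. By the study's methods weeks were counted from day 14, so day 14 and week 0 are the same time on diet, and LFC and HFC have 2 arrays of it, which are kept here as labelled. The series' design text speaks of 3 biological replicates, 5 mice per group were killed every 3 weeks, and the labels do not say how many animals an array stands for. P-values of the diet comparisons below therefore measure how differences between diets varied over time points. In the fit of weeks 3 to 18 this spread is shared by all 5 diets. P-values of late against early arrays measure the spread between time points of a diet. In whole tissue, fewer cells of a type and less RNA per cell cannot be told apart.

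The level of a gene is given as log2 of its processed signal minus the 75th percentile of that array, so that 0 is the 75th percentile of the array. The word dim is used for a probe that the scanner software did not call well above background. A gene was called high on an array when it was well above background there and at least 3 log2 units, or 8-fold, above its own median of the 39 arrays, with values under the array's detection floor set to that floor.

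The tissue label was checked first. All 6 adipocyte markers (Adipoq, Plin1, Fabp4, Lep, Cidec and Retn) were well above background on all 39 arrays, and their summed level ran from 86.1 to 868 times the 75th percentile. Of the markers of the mesothelium that covers visceral fat, Msln was well above background on 39 arrays, Wt1 on 37, Lrrn4 on 35 and Upk3b on 34. Their summed level was 0.121, 0.158, 0.0693 and 0.105 on the week 6 arrays of LFC, HFC, HF5 and HF75. Only 1 or 2 of the 4 markers were well above background there. On every other array the sum was 1.04 to 20.3, with 6.5 on HF20 week 6. The cause was not tested, and these week 6 arrays were kept in the fits and in the counts by diet. A pair of arrays stood apart technically. The scanner software set outlier marks on 16431 spots (37.5%) of LFC week 3 and on 10531 spots (24.0%) of HFC week 12, against at most 0.884% on each of the other 37. These spots were left out, so 22 of the 76 genes had no value on LFC week 3 and 27 had none on HFC week 12, while none was missing elsewhere. On LFC week 3, 22.5% of all measured probes passed the rule for high, against 0.0271% to 1.34% on the other 38 arrays. Some counts and most comparisons are also given without LFC week 3 and HFC week 12. Levels and ranges of single genes include their measured values.

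Of the 76 genes, 63 were high on at least 1 array, where 21.4% of all probes were. When LFC week 3 and HFC week 12 were left out, 55 were, beside 8.27% of all probes. The other 8 were high on LFC week 3 alone: Crisp2, Defb5, Defb8, Defb46, Defb50, Lcn11, Spink4 and Spink7. The genes were not high evenly over the arrays. On 14 arrays no gene of the set was high, on 14 arrays 1 to 4 genes were, and on 11 arrays 10 or more were. By diet, the count ran from 0 to 40 with a median of 4.0 in LFC, from 0 to 29 with a median of 1.5 in HFC, from 0 to 10 with a median of 1.0 in HF5, from 0 to 38 with a median of 6.0 in HF20 and from 0 to 1 with a median of 0.0 in HF75. Arrays with 10 or more high genes numbered 5 in LFC (4 without week 3), 1 in HFC, 2 in HF5, 3 in HF20 and 0 in HF75, so the 5 diets overlapped in their counts.

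**Figure D1:**
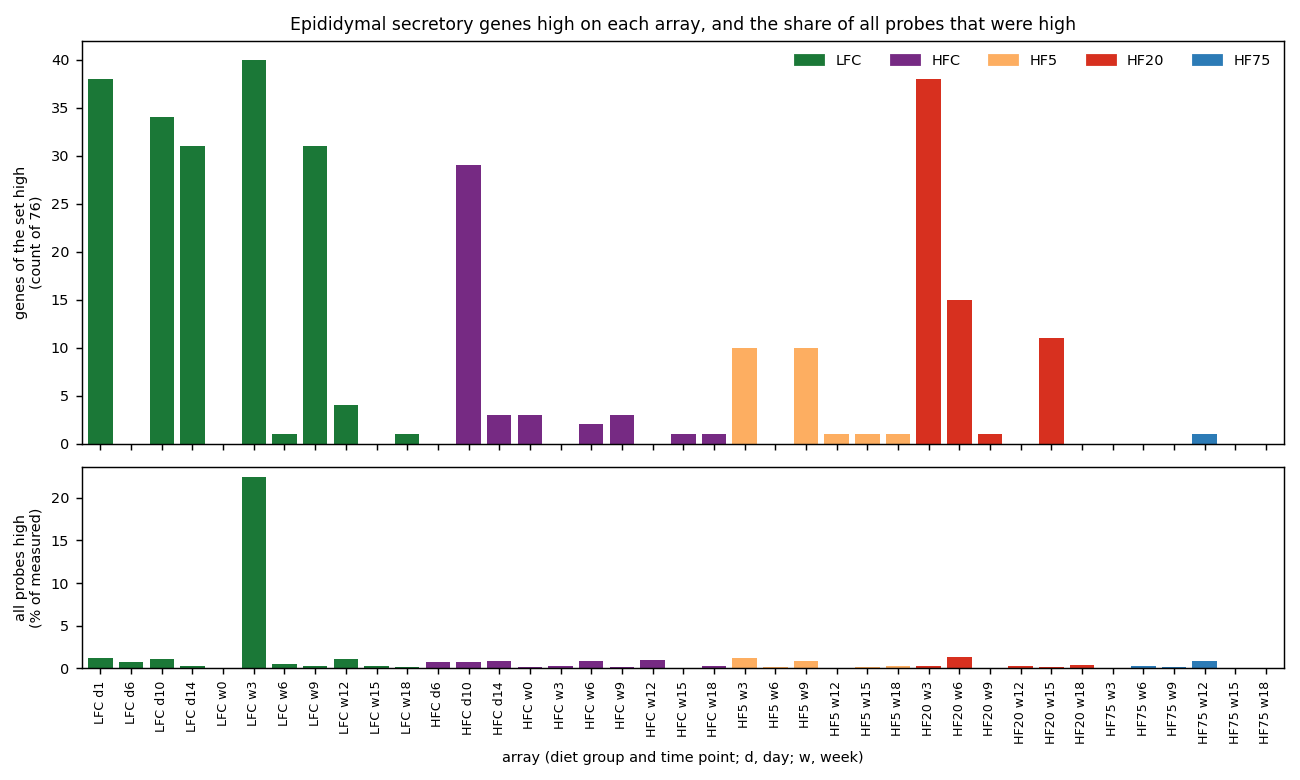
The upper panel plots the number of the 76 genes of the set called high on each of the 39 arrays, coloured and ordered by diet and then by time. The lower panel plots the share of all measured probes that were high, in percent. Gene counts reach 29 to 40 on 7 arrays and 10 to 15 on 4, and are at most 4 on the other 28, while the share of all probes stands out only on LFC week 3, at 22.5%.

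The arrays with many high genes differed in how much of the rest of the array was high. On LFC day 1, 38 of the 76 genes were high, where 1.19% of all probes were. LFC day 10 had 34 high genes of the set (1.14% of all probes), and HFC day 10 had 29 (0.759%). LFC day 14 and LFC week 9 each had 31, with 0.308% of all probes high on both. HF20 week 3 had 38, with 0.318% of all probes. The smaller counts were 15 on HF20 week 6 (1.34%), 11 on HF20 week 15 (0.18%), 10 on HF5 week 3 (1.18%) and 10 on HF5 week 9 (0.837%). On LFC week 3, 40 of 54 measured genes were high, beside 22.5% of all probes, so the set stood less far from the rest of the array there than on the other 10. Under normexp background correction the counts were lower on most of these arrays, at 24 on LFC day 1, 15 on LFC day 10 and on HFC day 10, 13 on LFC day 14, 24 on LFC week 3, 19 on LFC week 9, 11 on HF20 week 3, 10 on HF20 week 6, 5 on HF20 week 15 and 1 on HF5 week 3. On HF5 week 9 the count was then 11. With outlier spots kept, HFC week 12 rose from 0 to 19 high genes, where 12.9% of all probes were then high.

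Arrays of the same time point could lie far apart. At day 10 both diets had high counts (34 and 29), while at day 14 LFC had 31 and HFC had 3. At week 0, the same time on diet as day 14, LFC had 0 and HFC had 3. At week 3, HF20 had 38 and HF75, hybridised on the same slide, had 0. LFC week 3 and HFC week 3 shared a slide with counts of 40 and 0, and HF20 week 15 and HF75 week 15 shared another with 11 and 0. The other 4 slides that carried more than 1 array had counts of 0 to 3 on every array. The count therefore differed within slides.

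**Figure D2:**
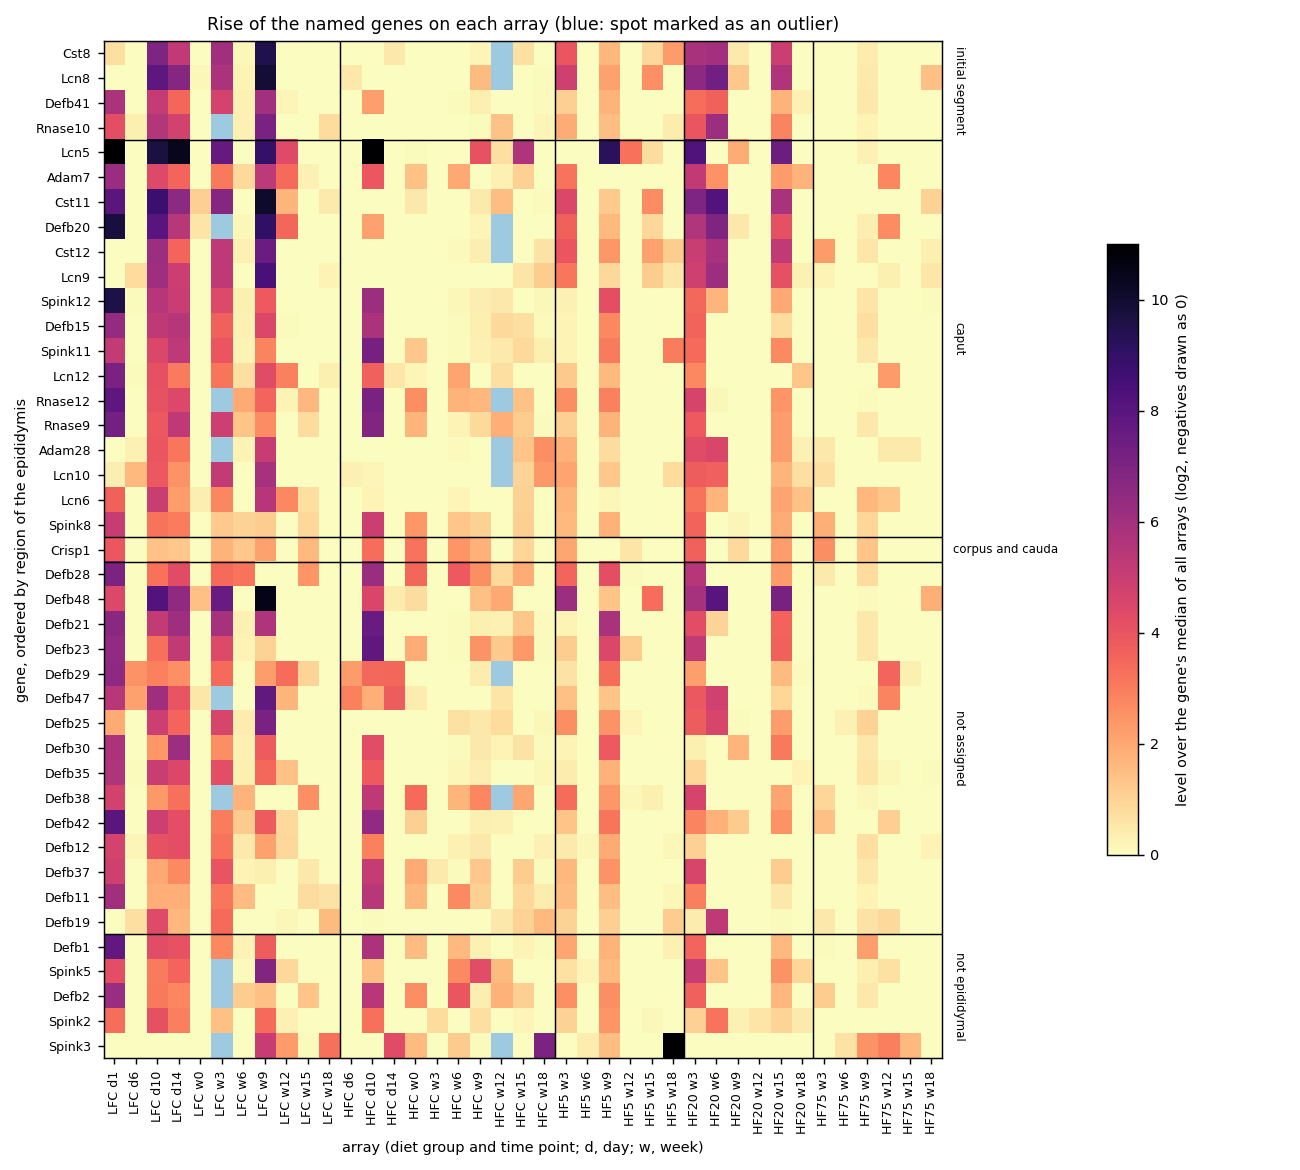
Rise of each gene over its own median of the 39 arrays (colour, log2 units, with negative values drawn as 0 and left-out spots in blue). Rows are the more often high or detected genes, grouped by the epididymal region they are known from, or as not assigned or not epididymal. Columns are arrays ordered by diet and time. Genes of the initial segment and caput are high in blocks on the same few columns. Genes not assigned to a region or not epididymal are also high on several of these columns, such as LFC day 1. In the 6 HF75 columns only Defb29 at week 12 was high.

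The genes that are known from the initial segment, the first stretch of the duct, were Cst8, Lcn8, Rnase10 and Defb41. Cst8 encodes CRES, a cystatin-related protein of the initial segment and of spermatids. Its level ranged from -8.19 to 4.01 in LFC (median -5.80), from -9.03 to -4.82 in HFC (median -7.33), from -7.97 to -1.53 in HF5 (median -4.25), from -9.46 to 0.50 in HF20 (median -2.77) and from -9.55 to -6.44 in HF75 (median -8.25), where it was dim on all 6 arrays. It was high on 8 arrays: 4.01 on LFC week 9, 1.50 on LFC day 10, 0.56 on LFC week 3, 0.50 on HF20 week 6, 0.34 on HF20 week 3, -0.30 on LFC day 14, -0.51 on HF20 week 15 and -1.53 on HF5 week 3. No HFC array reached the level of the lowest of the 8.

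Lcn8, a lipocalin of the initial segment, was high on exactly the same 8 arrays as Cst8, with 4.33 on LFC week 9, 2.33 on LFC day 10, 1.76 on HF20 week 6, 1.19 on LFC day 14, 0.99 on HF20 week 3, 0.21 on LFC week 3, 0.08 on HF20 week 15 and -0.71 on HF5 week 3. Rnase10, a ribonuclease-family protein of the initial segment, was high on 6 arrays, with 1.75 on LFC week 9 and 0.80 on HF20 week 6 as its highest values. Defb41, a beta-defensin of the proximal duct, was high on 7, among them LFC day 1 (0.18), where Cst8 (-4.76) and Lcn8 (-6.16) were not. All 4 genes were high on LFC day 10, LFC day 14, HF20 week 3, HF20 week 6 and LFC week 9, and the 3 of them measured on LFC week 3 were high there.

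The same 8 arrays also held every high value of Cst12, a cystatin, and of Lcn9, a lipocalin of the proximal caput, so that Cst8, Cst12, Lcn8 and Lcn9 formed 1 group with identical arrays. Cst12 was -8.18 to -5.03 over the HFC arrays and reached 1.87 on LFC week 9. Lcn9 was well above background on 33 arrays and reached 3.67 on LFC week 9 from a median of -4.75. A second probe of Lcn9 was high on the same 8 arrays. Cst11, a further cystatin of the proximal epididymis, was high on these 8 and on LFC day 1 (2.83), with its highest value, 5.03, again on LFC week 9. Without LFC week 3 each of the 4 had 7 high arrays and Cst11 had 8.

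Of the arrays with 10 or more high genes, HFC day 10 and HF5 week 9 were those where none of the 4 initial segment genes was high. Of the 4, 2 (Rnase10 and Defb41) were well above background on HFC day 10, and 1 (Lcn8) was on HF5 week 9. On HFC day 10, 9 of the 21 caput genes were high, with Lcn5 at 5.89, while Cst8 was dim at -9.03, Lcn8 dim at -6.83 and Cst11 at -7.56. On HF5 week 9, 3 of the 21 caput genes were high, with Lcn5 at 3.86, and Cst8 stood at -3.89. The converse was seen on HF20 week 6, where Cst11 stood at 3.04, Lcn8 at 1.76 and Cst8 at 0.50 while Lcn5 stood at -5.40, near its own median of -5.36. On LFC day 1, 12 caput genes were high, and so were Rnase10 and Defb41, but not Cst8 or Lcn8. The arrays thus differed in which genes of the set were high and not in the count alone.

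**Figure D3:**
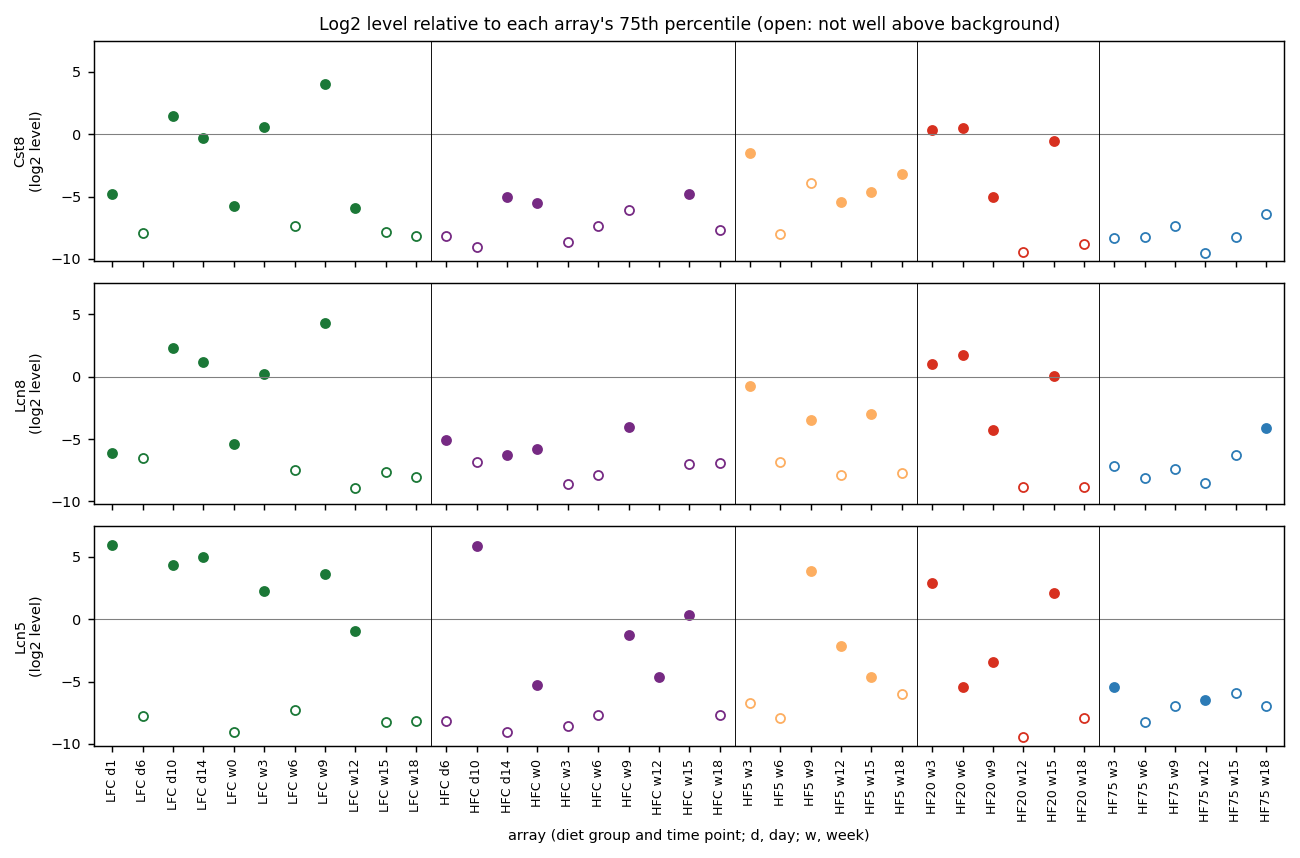
Level of Cst8, Lcn8 and Lcn5 (vertical axes, log2 processed signal minus the array's 75th percentile) on each array, by diet and time, with open points where the probe was dim and no point where the spot was left out. Cst8 and Lcn8 stand at -1.53 or above on the same 8 arrays. Lcn5 is at 5.89 on HFC day 10 and 3.86 on HF5 week 9, where Cst8 and Lcn8 were not high.

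Lcn5 encodes the epididymal retinoic acid binding protein of the mid and distal caput. It was high on 13 arrays, more than any other gene of the set. Its level ranged from -9.04 to 5.95 in LFC (median -0.98), from -9.05 to 5.89 in HFC (median -6.50), from -7.95 to 3.86 in HF5 (median -5.30), from -9.42 to 2.88 in HF20 (median -4.42) and from -8.22 to -5.40 in HF75 (median -6.75). The highest values were 5.95 on LFC day 1 and 5.89 on HFC day 10, both on saturated spots, then 5.03 on LFC day 14 and 4.32 on LFC day 10. A probe for transcript variant 2 of Lcn5 was high on 5 arrays, all among the 13.

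Lcn5 and Lcn8 are neighbours, as are Cst12 and Cst8, and the pairs behaved differently. On mouse chromosome 2 in GRCm38.p6, the starts of Cst12 and Cst8 lie 9474 bases apart, and both genes were high on the same 8 arrays. The starts of Lcn8 and Lcn5 lie 4834 bases apart, and these genes were both high on 6 of the 15 arrays where either was. The 250 bases upstream of the start are printed for the 4 genes with identical arrays, and for Lcn5 and Defb23 as genes that were high on HFC day 10 and HF5 week 9 where the 4 were not. They are from RefSeq (GRCm38.p6), written 5′ to 3′ on the strand of the gene, and capitals mark AGAACA or its other-strand form TGTTCT, the core of the sites bound by the androgen receptor, on which epididymal secretion depends.
Cst12, chr2:148789115-148789364, plus strand: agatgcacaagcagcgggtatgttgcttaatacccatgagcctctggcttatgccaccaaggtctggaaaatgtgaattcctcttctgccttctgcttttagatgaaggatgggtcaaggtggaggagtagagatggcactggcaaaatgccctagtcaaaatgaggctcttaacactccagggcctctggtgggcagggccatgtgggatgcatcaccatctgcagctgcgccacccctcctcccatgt
Cst8, chr2:148798589-148798838, plus strand: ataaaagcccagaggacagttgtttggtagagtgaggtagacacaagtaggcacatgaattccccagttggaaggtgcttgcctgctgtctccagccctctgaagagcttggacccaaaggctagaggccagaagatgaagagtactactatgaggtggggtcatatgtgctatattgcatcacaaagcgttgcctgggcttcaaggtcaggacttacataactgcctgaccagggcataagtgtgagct
Lcn8, chr2:25652868-25653117, plus strand: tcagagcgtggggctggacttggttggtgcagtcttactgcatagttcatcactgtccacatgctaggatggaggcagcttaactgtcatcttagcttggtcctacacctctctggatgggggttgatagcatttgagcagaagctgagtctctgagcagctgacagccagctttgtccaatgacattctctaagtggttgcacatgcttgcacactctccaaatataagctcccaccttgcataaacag
Lcn9, chr2:25822903-25823152, plus strand: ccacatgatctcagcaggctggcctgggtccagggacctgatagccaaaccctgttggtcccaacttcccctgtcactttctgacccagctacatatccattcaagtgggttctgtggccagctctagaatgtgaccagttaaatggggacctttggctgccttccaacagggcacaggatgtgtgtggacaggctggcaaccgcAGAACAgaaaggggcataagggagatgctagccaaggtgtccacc
Lcn5, chr2:25657702-25657951, plus strand: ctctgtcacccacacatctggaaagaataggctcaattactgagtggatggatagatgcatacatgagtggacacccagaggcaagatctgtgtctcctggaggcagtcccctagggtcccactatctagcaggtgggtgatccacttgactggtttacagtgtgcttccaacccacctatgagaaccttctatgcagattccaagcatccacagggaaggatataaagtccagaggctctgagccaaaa
Defb23, chr2:152464621-152464870, minus strand: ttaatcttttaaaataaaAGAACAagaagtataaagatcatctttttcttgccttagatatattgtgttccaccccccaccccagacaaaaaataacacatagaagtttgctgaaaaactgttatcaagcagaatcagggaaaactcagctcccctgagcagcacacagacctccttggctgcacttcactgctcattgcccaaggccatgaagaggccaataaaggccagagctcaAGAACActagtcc
The motif occurred 1 time in Lcn9, 2 times in Defb23 and 0 times in these letters of the other 4. Over all RefSeq promoters of this length, 16.1% of 32851 held it on either strand, and of 52 promoter entries found for 48 of the genes, 22 (42.3%) did. A second motif, AGGAAG or CTTCCT, the core of sites of the ETS family that includes regulators of the initial segment, was in 29.5% of all promoters and in 18 (34.6%) of the 52, and in none of the 6 printed. The 52 entries include gene copies with like sequence, so they are not independent, and a match is a description and not a site.

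Defb21 and Spink12 were high only on arrays where Lcn5 was, as were other genes of the set, among them Defb15, Defb23, Rnase9 and Spink11. Defb21, a beta-defensin whose region was not assigned, was high on 9 arrays, all among the 13 of Lcn5, with 1.98 on HFC day 10, 1.03 on LFC day 1 and 0.21 on HF5 week 9. Spink12, a protease inhibitor of the caput, was high on 8 arrays, all among the 13, with 3.91 on LFC day 1. Both were dim on all 6 HF75 arrays. Adam7, a protein of the ADAM family that is passed to sperm, was high on 9 arrays, 3.37 on LFC day 1, 2.45 on LFC week 9 and 2.34 on HF20 week 3 being the highest. Adam28, a metalloprotease, was well above background on 35 arrays but high on only 5, which were among the arrays of Rnase10. Rnase12, a ribonuclease-family gene, reached 4.73 on LFC day 1 and 3.97 on HFC day 10, and was high on the same 6 arrays as the brightest Defb1 probe. Rnase9, its relative without catalytic activity, was high on 6 arrays and dim on all 6 HF75 arrays.

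Lcn6, another epididymal lipocalin, was 1 of 2 genes of the set, with Defb25, that were well above background on all 39 arrays. Its level ranged from -2.65 to 4.19 in LFC (median 0.95), from -4.60 to -0.24 in HFC (median -2.34), from -4.04 to 0.38 in HF5 (median -1.96), from -3.10 to 1.87 in HF20 (median 0.24) and from -3.68 to 0.36 in HF75 (median -2.21). It was high on LFC week 9, LFC day 10, LFC day 1 and HF20 week 3, and the ranges of all 5 diets overlapped. Lcn10 and Lcn12 were high on 5 and 6 arrays. Lcn10 peaked on LFC week 9 (0.73), and Lcn12 on LFC day 1 (2.47), where Lcn10 stood at -4.74.

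Crisp1, a sperm-coating protein of the corpus and cauda, and Spink8, a protease inhibitor assigned to the caput, were present at substantial levels in most samples. Crisp1 was well above background on 31 arrays and above the 75th percentile of the array on 21, with a median of 1.13. It ranged from -7.89 to 5.06 in LFC (median 2.39), from -8.47 to 4.46 in HFC (median 1.44), from -6.90 to 3.18 in HF5 (median 0.11), from -8.84 to 4.74 in HF20 (median 0.35) and from -8.12 to 3.73 in HF75 (median -3.63). It was dim on 8 arrays, LFC day 6, HFC day 6, HFC week 3, HF5 week 6, HF75 week 6, LFC week 18, HFC week 18 and HF20 week 18. It was also above the 75th percentile on arrays with few other high genes, 4.31 on HFC week 0, 3.73 on HF75 week 3 and 3.55 on HFC week 6. On these 3 arrays 0 of the 21 caput genes were high by the rule, but 16, 11 and 9 of them were well above background. A level of Crisp1 and a rise of a caput gene over its median are unlike measures, so no contrast between regions is drawn from them.

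Spink8 was well above background on 30 arrays and above the 75th percentile on 22, with a median of 0.92. It was highest on LFC day 1 (5.99) and HFC day 10 (5.83), both saturated, and was 4.51 on HF20 week 3 and 4.13 on LFC day 10. It lay between 1.80 and 3.89 on 14 further arrays that included LFC week 15 (1.80), HFC week 0 (3.31) and HF75 week 3 (2.72). Crisp1 and Spink8 were high together on 3 of the 5 arrays on which either was. Because both genes have a high median, a rise of 3 log2 was reached by few arrays, and their counts of high arrays are not comparable with those of genes that are dim on most arrays.

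**Figure D4:**
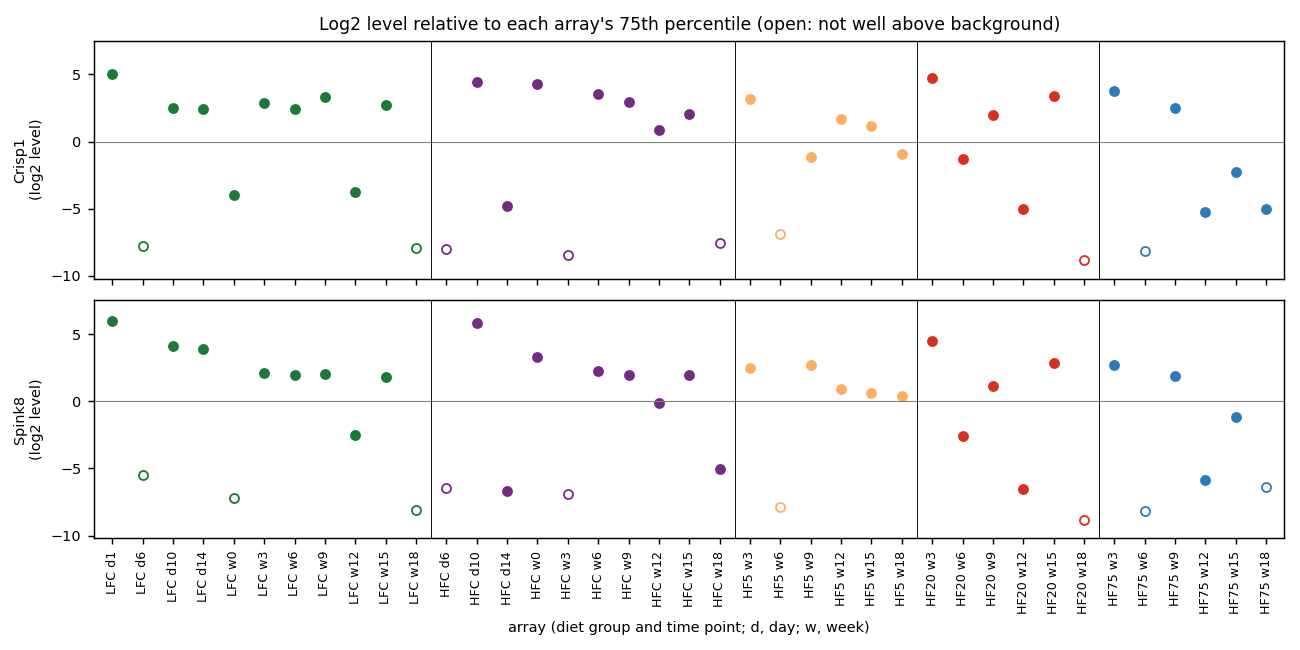
Level of Crisp1 and Spink8 (vertical axes, log2 processed signal minus the array's 75th percentile) on each of the 39 arrays, by diet and time, with open points where the probe was dim. Crisp1 lies above 0 on 21 arrays and Spink8 on 22, in every diet, and Crisp1 is dim on 8 arrays, with values between -8.84 and -6.90.

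The beta-defensins, small cationic proteins, made up the largest family, and 35 of the 44 were high on at least 1 array, or 31 without LFC week 3 and HFC week 12, beside the shares of all probes given above. Defb48 and Defb28 were high on 11 arrays each, 7 of them shared. Defb48 was 5.32 on LFC week 9, 2.95 on LFC day 10 and 2.79 on HF20 week 6, and -0.76 on LFC day 1. Defb28 was 4.73 on LFC day 1, 3.93 on HFC day 10 and 3.15 on HF20 week 3, and -8.07 on HF20 week 6 and -3.06 on LFC week 9. On LFC week 9 and HF20 week 6 Defb48 was thus among its highest while Defb28 was not high. Defb20, of the caput, was high on 9 arrays, 8 of them shared with Cst11, and reached 4.25 on LFC day 1 and 3.57 on LFC week 9. Defb47 (2.54), Defb25 (2.91) and Defb45 (1.04) had their highest values on LFC week 9.

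Defb42, Defb23, Defb29, Defb15, Defb35, Defb37, Defb38 and Defb39 had their highest values on LFC day 1 or HFC day 10. Defb42 was 3.34 on LFC day 1 and 1.90 on HFC day 10, and Defb23 was 2.20 on HFC day 10 and 0.89 on LFC day 1. Defb29 was 2.53 on LFC day 1 and was the 1 gene of the set that was high on an HF75 array, with -0.49 at week 12. Defb15, of the caput, was 0.79 on LFC day 1 and 0.16 on HFC day 10. Defb37, Defb38 and Defb39 all had their highest value on HFC day 10, at -0.47, 0.04 and -0.33, and Defb35, at 0.03 on LFC day 1, was high on the same 6 arrays as Lcn12. Other defensins differed. Defb30 was highest on LFC day 14, at 0.57. Defb22, which coats sperm, was high only on LFC week 3 (-0.86) and HF20 week 3 (-1.34), the same arrays as Defb26 and Defb40. Defb12 was high on 4 arrays, all LFC and among them LFC week 3. On HFC day 10 it was well above background at -2.92, against a median of -5.80, and fell just short of the rule for high. Defb19 was high on LFC day 10, LFC week 3 and HF20 week 6, where it stood at -0.53, -1.47 and 0.38, and its second probe was high on the same 3.

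Of the 76 genes, 11 are known mainly from other organs, and 9 of these were high on some array, or 7 without LFC week 3 and HFC week 12, since Crisp2 and Spink4 were high on LFC week 3 alone. Defb1, a defensin of kidney and other epithelia, was 2.18 on LFC day 1 and 0.16 on HFC day 10. Both further probes of Defb1 were high on both of these arrays. Neither was high on LFC day 10, LFC day 14, HF20 week 3 or LFC week 9, where the brightest probe was high. Defb2 was 2.25 and 1.41 on the same arrays and Defb11, whose region was not assigned, 2.01 and 1.40. Defb3, an inducible epithelial defensin, was well above background on 31 arrays but high on none, with levels from -7.39 to -2.61. Defb36 likewise was well above background on 31 and high on none. Spink2, an acrosin inhibitor of testis and sperm, was well above background on 37 arrays and was high on LFC day 10 (1.70), LFC week 9 (0.99), LFC day 1 (0.92), HFC day 10 (0.89) and HF20 week 6 (0.81). Spink5, known from skin, was high on 6 arrays and reached 1.45 on LFC week 9.

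Spink3, a trypsin inhibitor of pancreas and seminal vesicle, was high on a different set of 5 arrays. It stood at 5.84 on HF5 week 18, 1.68 on HFC week 18, -0.29 on LFC week 9, -1.05 on HFC day 14 and -2.09 on LFC week 18, against a median of -5.36. Of these 5, only LFC week 9 was among the 11 arrays with 10 or more high genes. The seminal vesicle secretory protein genes Svs4, Svs5 and Svs6 were high on all 5. Svs3a was high on all of these but LFC week 18, and on HF20 week 9. Akr1b7, listed with these genes as a marker of the vas deferens, was well above background on 34 arrays. It was high on 14 arrays, and of the 5 only on LFC week 9. Svs4 was 6.85, 4.96, 3.06, 1.65 and 0.88 on HF5 week 18, HFC week 18, LFC week 9, HFC day 14 and LFC week 18. Svs4, Svs5 and Svs6 were also high on HFC week 0 and HF75 week 9, where Spink3 stood at -3.81 and -2.91. Of 6 pancreas markers on the array (Cel, Cela1, Prss2, Pnlip, Ctrb1 and Cpa1), 0 were high on these 5 arrays, and Prss2 was dim on all 39.

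**Figure D5:**
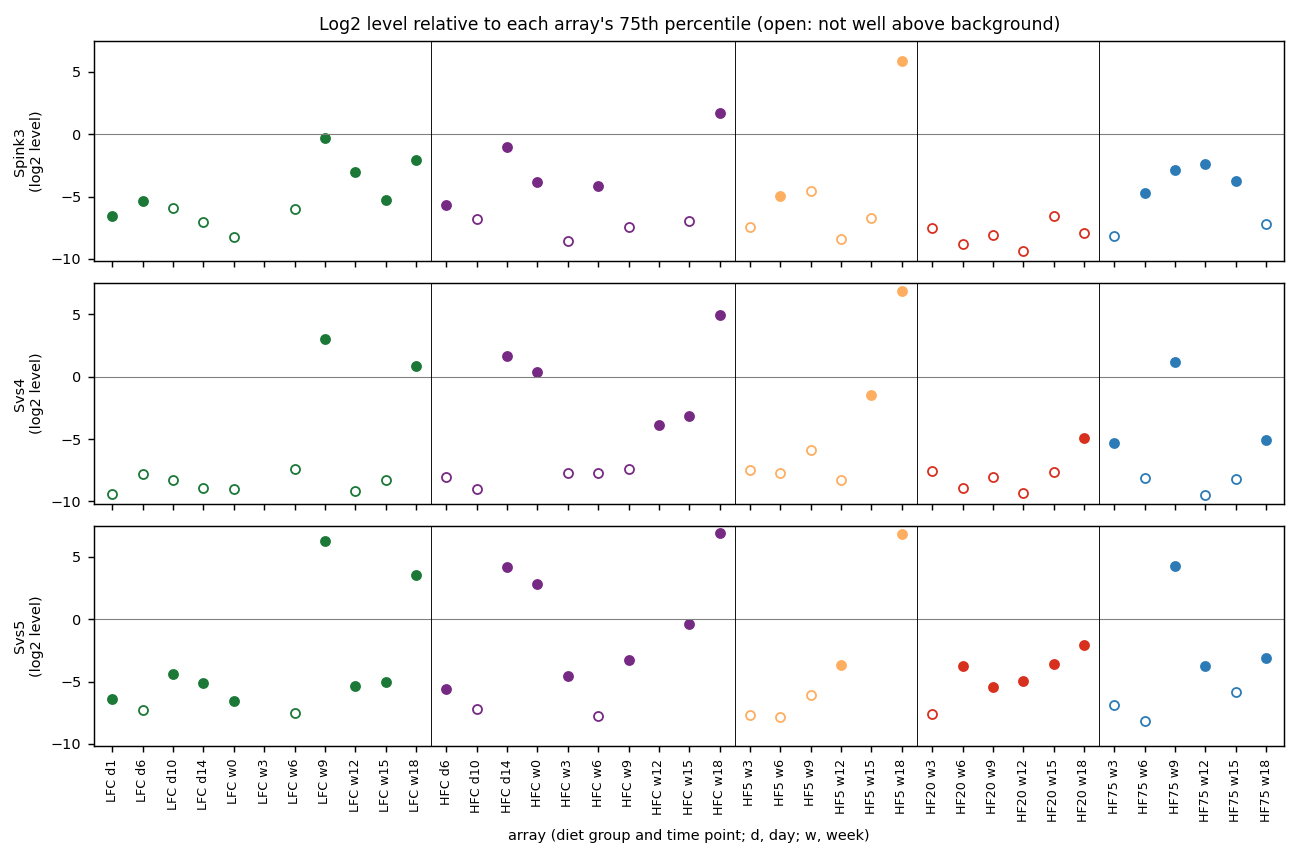
Level of Spink3 and of the seminal vesicle genes Svs4 and Svs5 (vertical axes, log2 processed signal minus the array's 75th percentile) on each array, by diet and time, with open points where the probe was dim and no point where the spot was left out. On the 5 arrays where Spink3 was high, Svs4 stands at 0.88 to 6.85, and Svs4 and Svs5 are also high on HFC week 0 and HF75 week 9.

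The other 13 genes were high on no array: Defb3, Defb4, Defb7, Defb13, Defb33, Defb34, Defb36, Defb44, Defb48-ps, Lcn13, Rnase11, Rnase13 and Spink10. They include Rnase11, Rnase13, Lcn13 and Spink10 of the 21 caput genes, of which the other 17 were high somewhere. Lcn13 and Spink10 were each well above background on 1 array, and Rnase13, on 13, lay between -8.95 and -5.14. No gene of the set was dim on every array.

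Markers that the set does not contain were followed on the same arrays, and their part in the results was not tested. Of 14 other epididymal genes on the array, 4 to 11 were high on the 11 arrays with 10 or more high genes and 0 to 2 on the other 28. Their summed level ran up to 196 on the former and from 0.245 to 7.41 on the latter, without overlap, and Gpx5, an epididymal glutathione peroxidase, stood at 6.85 on LFC week 9 and 6.24 on LFC day 1. The 8 sperm and testis markers moved differently. Of these, 7 were high on HF20 week 6, 6 on LFC day 10 and 5 on each of HF5 week 3, HF5 week 9 and HF5 week 18, but 1 on LFC day 1 and 0 on HF20 week 3, LFC week 9 and HFC day 10. Prm1, a sperm protamine, was 5.60 on HF20 week 6 and -0.03 on LFC week 9. Across the 5 diets the sperm and testis sum ran to 59.3 in LFC, 8.40 in HFC, 23.3 in HF5, 101 in HF20 and 0.635 in HF75.

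Of 6 epithelial markers (Epcam, Cdh1, Cldn7, Krt8, Krt18 and Krt19), 4 were high on LFC day 1, 2 on each of LFC day 10 and HFC day 14, and 1 on HFC day 10. Of 5 skin markers, 1, Krt5, was high on LFC day 1, LFC day 10 and HFC day 10, and Krt10 was on LFC week 3. Neutrophil markers were high on HF20 week 15, 4 of 5, and on HF5 week 15, 3 of 5, and were not high on the other 10 arrays with 10 or more high genes. Of 4 B lymphocyte markers at most 2 were high on an array, on LFC week 3. Adipocyte markers had summed levels of 86.1 to 868 on the 11 arrays with 10 or more high genes and 88.4 to 454 on the others, so these ranges overlapped.

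Differences between diets were tested gene by gene, with limma across all probes that passed a detection filter, the time point as a block and Benjamini-Hochberg adjustment. Between HFC and LFC at 10 shared time points, 40 of the 76 genes passed the filter, and limma called 0 of them, where 0% of 29169 probes were called. At an unadjusted p under 0.05 there were 6 genes of the set, all lower in HFC, and 889 probes (3.05%). Of the 40, 12 were higher and 28 lower in HFC, with a median difference of -0.42 log2 against 0.03 for all probes tested. The smallest p was that of Lcn6, with means of -2.23 in HFC and 0.30 in LFC, a difference of -2.54 ± 0.78 (SE) and lower values in HFC at 8 of 10 time points. Its p in limma was 0.00673 unadjusted and 0.998 adjusted. Cst11 differed by -3.89 ± 1.37, Defb48 by -2.95 ± 1.26, Lcn9 by -2.54 ± 1.06, Defb45 by -2.32 ± 0.91 and Defb25 by -1.98 ± 0.89, none past the adjusted threshold. With day 14 and week 0 as 1 time point, an alternative added after seeing the data, limma called 0 genes and 6 had an unadjusted p under 0.05. Without LFC week 3 and HFC week 12, 0 of 35 genes were called, 4 had an unadjusted p under 0.05, and the median was -0.21.

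The comparison of weeks 3 to 18 alone, fitted with all 5 diets, gave the same count. Between HFC and LFC, 0 of 59 genes were called (0% of 31450 probes), 5 had an unadjusted p under 0.05, all lower in HFC, against 725 probes (2.31%), and 11 were higher and 48 lower, with a median of -1.08 against 0.06 for all probes. Defb12 had the smallest p in limma, with a difference of -2.28 ± 0.77 and 1 with adjustment. It was dim on all 6 HFC arrays, which bounds its mean LFC level at least 1.08-fold higher. Without the pair of arrays that stood apart, 0 of 54 were called, 1 had an unadjusted p under 0.05, and the median was again -1.08.

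For the KAL-1 doses the set showed no called gene either. Between HF5 and HFC, 0 of 59 genes were called (0% of 31450 probes), 0 had an unadjusted p under 0.05 against 1076 probes (3.42%), and 31 were higher and 28 lower, with a median of 0.10 against -0.03 for all probes. The smallest p was that of Rnase13, with -0.80 ± 0.43, which was dim on all 6 HF5 arrays, and limma gave it 0.077 unadjusted and 0.954 adjusted. Between HF20 and HFC, 0 of 59 were called (0%), 4 had an unadjusted p under 0.05 against 1523 probes (4.84%), and 36 were higher and 23 lower. Their median was 0.28 against -0.07 for all probes, or 0.74 when HFC week 12 and LFC week 3 were left out of the fit. Those 4 were Rnase13, at a difference of -1.08 ± 0.43, and Defb20, Lcn8 and Cst12, at 4.53 ± 1.91, 4.41 ± 1.88 and 3.53 ± 1.67, each with an adjusted p of 0.78 in limma. Defb20 was higher in HF20 at 5 of 5 time points and dim on all 5 measured HFC arrays, so that its mean HF20 level was at least 6.1-fold higher. Its single HF20 arrays ran from -9.41 to 1.52. Lcn8 was higher at 3 of 5. Defb20, Lcn8 and Cst12 were high on HF20 week 6, where the mesothelium sum was 6.5 against 0.158 on HFC week 6. The part of this pair in the differences was not tested.

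Between HF75 and HFC, 0 of 59 genes were called (0% of 31450 probes) and 2 had an unadjusted p under 0.05, both lower in HF75, against 472 probes (1.5%). Of the 59, 14 were higher and 45 lower, with a median of -0.74 against -0.01 for all probes, or -0.51 without the same pair of arrays. Defb37 was lower in HF75 at 6 of 6 time points, with means of -7.87 and -5.68 and a difference of -2.19 ± 0.87, and was dim on all 6 HF75 arrays, so that the HFC mean was at least 1.29-fold higher. Its p in limma was 0.0193 unadjusted and 1 adjusted. Defb11 differed by -1.70 ± 0.78. The low counts of high genes in HF75 therefore went with no called difference from HFC. The doses share the HFC arrays, so these comparisons are not independent of each other.

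Early arrays (days 1 to 14 and week 0) were compared with late ones (weeks 3 to 18) within LFC and within HFC. Within LFC, 0 of 58 genes were called in limma, while 149 of 30421 probes (0.49%) were, and 2 had an unadjusted p under 0.05 against 1680 probes (5.52%). Of the 58, 10 were higher and 48 lower late, with a median of -0.96 against -0.09 for all probes. Spink3 had the smallest p, with means of -3.35 late and -6.62 early and a difference of 3.27 ± 1.00, unadjusted p 0.00718 and adjusted p 0.462 in limma. Without LFC week 3 the median was -1.54 over 50 genes and 0 were called.

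Within HFC, 0 of 50 genes were called in limma (0% of 30582 probes), and 2 had an unadjusted p under 0.05 against 5152 probes, 16.8% of those tested. Defb47 had the smallest p, with -8.61 to -1.42 over the HFC arrays, means of -6.57 late and -2.97 early and a difference of -3.59 ± 0.79. Its unadjusted p was 0.000833 and its adjusted p 0.21 in limma. It was called, as the single gene of the set, when arrays were centred on their median (adjusted p 0.0373 in limma) and when HFC week 0 was left out (adjusted p 0.0356). Defb29 differed by -4.08 ± 1.17, with an adjusted p of 0.224. Between 24 higher and 26 lower genes, the median was -0.18 against 0.03 for all probes, and -0.54 without HFC week 12.

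The probes rest on transcript records of different age. Of the 76 genes, 75 matched a RefSeq accession, Crisp4 did not, and 4 carry another symbol there: Defb44 is Defb44-ps, Defb48-ps is Gm21944, Lcn13 is Obp2a and Spink3 is Spink1. The brighter Defb41 probe was described as Gm15386, a predicted gene, and the second Defb41 probe was high on 3 of its 7 arrays, LFC day 1, LFC day 10 and LFC week 9. For Adam28 the second probe was high on 4 of the 5 arrays. Beta-defensin genes lie in clusters of related copies, so a probe may also bind the RNA of a relative, and this was not tested.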

How the data were processed

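Epididymal adipose RNA of C57BL/6J mice was measured on 39 Agilent arrays of 1 colour. The authors deposited scanner output, read with Agilent Feature Extraction (9.1 per the labels, 10.5.1.1 per the file headers), in which each spot has a processed signal intensity after background subtraction; its array annotation is of build mm9. A deposited series table holds log2 values of the authors, as differences from LFC at each time point with 1 value per treated array, and was used as an alternative only. The levels used here were log2 of the processed signal intensity minus each array's 75th percentile, with control and outlier spots left out and spots of a probe averaged (43803 spots, 40628 probes).

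The set and the marker lists (adipocyte, visceral mesothelium, other epididymal, sperm and testis, seminal vesicle and vas deferens, epithelium, pancreas, skin, B lymphocyte, neutrophil) were chosen with earlier results of these data known, and regions of the epididymis were assigned from textbook knowledge. Genes were named that were high on most arrays (at most 30), that passed an adjusted p of 0.05, that had the smallest p in a comparison, or that were well above background on at least 30 arrays. Others were named after their values were seen.

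Diets were compared with limma 3.58.1 in R 4.3.3 with the time point as a block (20 arrays for HFC and LFC at 10 time points, 30 for weeks 3 to 18), and late with early arrays within LFC and HFC, after a filter that required a probe to be well above background on at least 10, 6, 5 and 4 arrays of the respective fit. Each diet and labelled time point has 1 array, and replicate numbers follow accession order, so that pairing is by time point alone. P-values were adjusted by Benjamini-Hochberg over all probes tested. Scripts were tested on simulated data. The number of arrays limits the precision. Where a group was dim on all its arrays, the fold is a bound set by the lowest signal well above background. Alternatives were normexp background correction (offset 50), quantile and median scaling, outlier spots kept, other filters, slide as a random block, the methods' t-test and leaving out arrays. Python 3.11.15, numpy 2.4.6 and pandas 2.3.3 were used.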

Additional observations from a re-analysis of the deposited data

Results flagged for a closer look

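Within HFC, HF5, HF20 and HF75, the highest and the lowest array of each of 44 named genes and of the count of high genes were set against the nearest other array by Dixon's ratio, and 33 of 180 groups of arrays passed its 95% limit. LFC, with 11 arrays, was not tested. Chance gives about 1 in 20 groups, but most of the genes were named for being high on some arrays and are high together, so the 33 are a description and no test. Values are gaps in log2 units to the nearest other array of the diet. Values under an array's detection floor were set to that floor, so a gap to a dim array is a gap to the floor.

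HFC day 10 stood above the other HFC arrays for 15 genes. The gap was 6.28 for Defb21, 5.94 for Spink11, 5.68 for Spink12, 5.38 for Defb42 and 5.30 for Defb23. It was 4.98 for Rnase9, 4.94 for Defb15, 4.11 for Defb1, 3.62 for Defb30, 3.48 for Defb35 and 3.15 for Defb37. For Spink2 it was 2.49, for Defb12 2.37, for Defb20 1.97 and for Defb41 1.91. The count of high genes on this array was 29, which is 26 above the next HFC array. Rnase10 was instead highest on HFC week 12, by 1.22, an array with 24.0% of its spots left out.

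HF5 week 9 stood above the other HF5 arrays for Lcn5 by 5.97, Defb21 by 5.57, Spink12 by 3.91, Defb30 by 3.60, Defb23 by 3.30 and Defb15 by 2.48. It was the array with the weakest signal and the highest detection floor, -3.86. Spink3 on HF5 week 18 stood 9.70 above HF5 week 9, where it was dim. Spink8 was dim on HF5 week 6 and lay below the other HF5 arrays there, with a gap of -6.04 from the floor.

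Among the HF20 arrays, week 6 was highest for Defb19 by 4.84, Defb36 by 2.36 and Spink2 by 2.17. Among the HF75 arrays, week 12 was highest for Lcn12 by 2.77, Defb47 by 2.74 and Defb20 by 2.28, and held the single high gene of the diet, a count 1 above the other 5, which were all 0, so that any count above 0 there would have passed. Spink2 on HF75 week 3 had a gap of -2.04 and was lowest there.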

How the results depend on the processing

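Of the counts of called genes under all alternatives, 130 were the same as the reported count and 2 differed. Both concerned late against early arrays within HFC, where the reported count was 0: it was 1 (Defb47) with arrays centred on their median, and ran from 0 to 1 when each array was left out in turn, with the 1 reached without week 0. Of the differences of single genes, 367 kept their direction and call, 2 (both Defb47) became called, and 1 reversed: Rnase13 between HF5 and HFC was 0.02 under normexp and -0.80 as reported. No replicate block, that is, a fit in which time points do not pair the arrays, gave 0 called genes in each of the 5 diet comparisons, and so did the methods' t-test and the authors' values. With slide as a random block the consensus correlation was -0.481 for the 20-array fit and 0.00245 for the 30-array fit, and no gene of the set was called. Within LFC and within HFC no slide held more than 1 array, so that this fit was not run. Called probes among all probes varied more, from 149 for late against early LFC to 0 under normexp, 67 under quantile scaling, 78 under median centring, 79 with outlier spots kept and 46 to 210 with an array left out (210 without week 3), and from 0 for HFC to 47 under median centring and 745 without week 0. The cause was not tested.

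Of the counts of high genes per array, 195 stayed within 1.5 times and 78 did not. The number of arrays with 10 or more high genes, 11 as reported, was 8 at a rise of 4 log2, 9 under normexp, 10 under quantile scaling or median centring, 11 at a rise of 2 log2 or without the floor and 12 with outlier spots kept. LFC week 3 changed most, from 40 to 6 under median centring, 16 under quantile scaling, 24 under normexp and 63 with outlier spots kept, where 36.0% of all probes were high. Under normexp the count fell to 24 on LFC day 1, 15 on both day 10 arrays, 13 on LFC day 14, 11 on HF20 week 3, 5 on HF20 week 15 and 1 on HF5 week 3. Signals near background limit the genes that are dim on most arrays, since their median and thus their rise depend on the floor.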
